A study of Mus musculus with 4 samples.

Results

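The angiopoietin-Tie and VEGF receptor genes comprise the ligands *Angpt1*, *Angpt2* and *Vegfa*, the receptor kinases *Tek*, *Tie1*, *Kdr*, *Flt1* and *Flt4*, and the co-receptors *Nrp1* and *Nrp2*. They were found as probe sets to which the array's annotation gives only that symbol, and 277 of the 321091 probe sets with a single symbol belonged to the 10 genes. A probe set, a group of probes for a stretch of an exon, was kept when at least 2 of the 4 arrays read 5.04 or more on the log2 intensity scale, and those kept were averaged to give the value of a gene. This left 164 probe sets and a value for 9 of the 10 genes, among 18762 genes tested. The faintest probe set kept, of *Flt1*, had a second-highest value of 5.04 and the brightest left out, of *Flt4*, one of 5.01.

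RNA came from iSox7 mice, in which doxycycline switches on SOX7 together with GFP. Their bone marrow cells were passaged repeatedly on irradiated OP9 stroma with Kit ligand, interleukin 7 and FLT3, then sorted on SOX7::GFP and cKIT into SOX7::GFP high cells and cells with low SOX7::GFP, each on 2 Affymetrix exon arrays. The study describes both populations as fractions of the GFP-expressing cells that grew in the induced cultures. The series text instead speaks of doxycycline present or absent, and the sample labels give only the SOX7 level, which set the groups here, so the doxycycline status of the SOX7::GFP low arrays is not settled by these sources. The labels name the line iSOX7, derived from Ainv18, and neither they nor the study's methods give the strain, age or number of mice behind an array. The study calls the 2 arrays of a population biological duplicates, without saying whether these were separate mice, cultures or sorts, so a p-value covers the spread among these 4 arrays and no more. *Sox7* itself stood at 9.52 and 9.63 on the SOX7::GFP high arrays and at 9.07 and 8.90 on the SOX7::GFP low arrays, a difference of 0.59 that was not called (adjusted p = 0.0859 from limma). *Kit* was at 10.22 and 9.91 against 9.24 and 9.12 (adjusted p = 0.0464 from limma, difference under 2-fold). Array medians lay between 3.90 and 3.91, and correlations across genes were 0.961 and 0.958 within groups and 0.859 to 0.865 between them.

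ANGPT1 is the agonist of the receptor kinase TIE2, encoded by *Tek*, while ANGPT2 can oppose it, and TIE1 is a related receptor that modulates TIE2. VEGFA acts mainly through the VEGF receptor encoded by *Kdr*, which marks blood and endothelial precursors. *Flt1* encodes a high-affinity decoy-like receptor, *Flt4* the receptor of lymphatic endothelium, and the neuropilins bind VEGFs and class 3 semaphorins. Outside vessels, *Tek*, *Tie1* and *Angpt1* are known from haematopoietic stem and progenitor cells, and *Kdr* from their embryonic precursors.

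The proximal promoters of *Tek* and *Tie1*, both on chromosome 4 and both higher in SOX7::GFP high cells, and of *Kdr*, which was lower, are given because SOX7 is a DNA-binding factor. RefSeq windows (GRCm38.p6, 250 bases before to 50 bases after the gene start, in the direction of transcription) were matched by symbol for 8 of the 10 genes. Capitals mark the cores AACAAT and AACAAA, which SOX proteins bind, and CAGGAA and CCGGAA, which ETS proteins bind, read on either strand.
Tek, chr4:94739039-94739338, plus strand: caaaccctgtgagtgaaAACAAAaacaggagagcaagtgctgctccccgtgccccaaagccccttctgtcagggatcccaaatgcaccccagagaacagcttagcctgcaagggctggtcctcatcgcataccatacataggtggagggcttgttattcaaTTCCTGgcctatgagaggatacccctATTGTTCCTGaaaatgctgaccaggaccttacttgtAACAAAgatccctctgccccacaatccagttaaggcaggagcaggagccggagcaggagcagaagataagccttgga
Tie1, chr4:118489800-118490099, minus strand: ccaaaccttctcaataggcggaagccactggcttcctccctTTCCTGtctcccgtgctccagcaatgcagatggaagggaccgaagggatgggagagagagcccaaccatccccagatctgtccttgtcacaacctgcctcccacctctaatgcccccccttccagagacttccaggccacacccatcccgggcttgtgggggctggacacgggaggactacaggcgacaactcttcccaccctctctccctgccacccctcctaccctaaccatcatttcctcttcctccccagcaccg
Kdr, chr5:75978406-75978705, minus strand: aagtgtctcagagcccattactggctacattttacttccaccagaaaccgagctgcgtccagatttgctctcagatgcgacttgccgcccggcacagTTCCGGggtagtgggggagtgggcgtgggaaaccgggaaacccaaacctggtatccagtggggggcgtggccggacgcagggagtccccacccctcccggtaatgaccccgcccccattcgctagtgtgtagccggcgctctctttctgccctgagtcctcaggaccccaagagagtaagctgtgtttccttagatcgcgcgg
The *Tek* window held 3 SOX cores, with AACAAA at -233 and -27 and AACAAT at -63 relative to the start. The AACAAT, on the opposite strand, overlaps the CAGGAA at -59 on that strand, and another CAGGAA lies at -89. *Tie1* had a CAGGAA at -209 and *Kdr* a CCGGAA at -153, and neither had a SOX core. The windows of *Flt1*, *Flt4* and *Nrp1* held none of the 4 cores, and *Nrp2* and 1 of 2 *Vegfa* windows each held a CAGGAA. Of all 32851 promoter windows of this length, 27.7% hold at least 1 of the SOX cores and 41.4% at least 1 of the ETS cores, and a match is a description of the letters, not a binding site.

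Of the 9 genes with a value, *Angpt1*, *Tek*, *Tie1* and *Nrp1* were higher in SOX7::GFP high cells, *Kdr* was lower, and *Angpt2*, *Flt1*, *Flt4* and *Vegfa* were not called. Calls required at least a 2-fold change and p under 0.05 in limma after Benjamini-Hochberg adjustment over every gene tested, and 3.61% of these were called higher, 3.24% lower and 6.85% either. With no fold minimum the number of the 9 genes that passed stayed at 5, where 8.66% of all did. The groups did not overlap for 8 of the 9, 5 of them higher and 3 lower in SOX7::GFP high cells, against 54.4% of all genes, 32.2% higher and 22.2% lower. The genes were chosen with results of these arrays known, so that their number beside these shares is a description. In sorted populations, fewer cells of a type and less RNA per cell cannot be told apart.

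**Figure D1:**
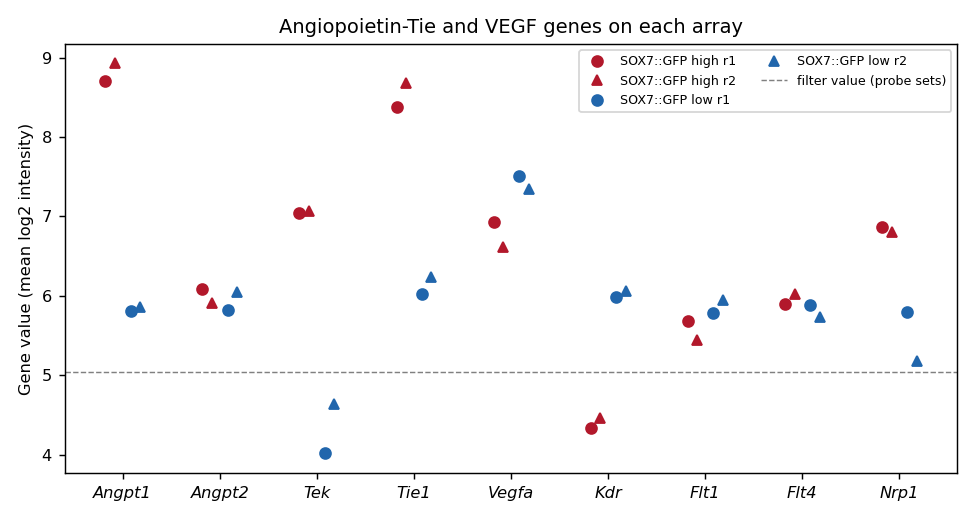
Mean log2 intensity of each of the 9 genes (y axis) on each of the 4 arrays, SOX7::GFP high in red and SOX7::GFP low in blue, with circles for r1 and triangles for r2. The dashed line is the filter value of 5.04 for probe sets; Tek lies under it in SOX7::GFP low cells and Kdr in SOX7::GFP high cells.

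Of the ligands of TIE2, *Angpt1* stood at 8.70 and 8.93 on the SOX7::GFP high arrays and at 5.81 and 5.85 on the SOX7::GFP low arrays. The groups were 2.85 apart at their nearest, against SDs of 0.16 and 0.030 (n = 2 arrays each). The log2 difference was 2.98 (standard error 0.15, adjusted p = 0.00362 from limma) with a 95% interval from 2.59 to 3.37, or 7.89-fold. By size it ranked 157 among the genes tested. The rise ran through the gene: all 17 probe sets passed the filter, and all 17 had both SOX7::GFP high arrays above both SOX7::GFP low arrays, with differences from 2.01 to 4.07. Among all probe sets kept, 30.3% were separated in this way. Tested singly, 14 of the 17 were called higher, against 2.25% of all probe sets kept. The probe sets at both ends of the range, 2 of the 17, passed through the SOX7::GFP high arrays alone and were bound to be higher. Neither was called singly.

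*Angpt2*, the antagonist in many settings, was at 6.08 and 5.91 on the SOX7::GFP high arrays and at 5.82 and 6.05 on the SOX7::GFP low arrays. The groups overlapped. Its difference of 0.060 had a 95% interval from -0.36 to 0.48 (adjusted p = 0.870 from limma), which leaves out a 2-fold change in either direction, and it changed sign with the scaling (-0.074 when arrays were centred on reference genes). Of its 16 probe sets 8 passed the filter, 5 with a positive and 3 with a negative difference, and none was called by limma, with 0 of them even at an unadjusted p under 0.05. The difference between *Angpt1* and *Angpt2* was not tested.

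Of the Tie receptors, *Tek* was at 7.05 and 7.07 on the SOX7::GFP high arrays and at 4.01 and 4.63 on the SOX7::GFP low arrays. Both SOX7::GFP low values fell under the filter value and varied more than the SOX7::GFP high values (SD 0.44 against 0.014, n = 2 arrays each). The log2 difference was 2.73 (standard error 0.24, adjusted p = 0.00745 from limma). No fold is given, since the SOX7::GFP low level lay under the filter value. Without either SOX7::GFP high array the difference stayed at 2.74 and 2.72 but the call was lost (adjusted p = 0.0607 and 0.0600 from limma). All 31 probe sets had a positive difference, from 0.60 to 4.64, and 30 of them had no overlap between groups. Of the 26 kept, 14 reached the filter value through the SOX7::GFP high arrays alone, so these could only have differed in that direction. With all 31 probe sets and no filter the difference was 2.58 (adjusted p = 0.00412 from limma). Of the 26 kept, 25 did not overlap and 15 were called higher singly. Among all probe sets kept, 30.3% did not overlap in this direction and 2.25% were called higher. Most of the 15 were among the 14 that could only have differed in this direction.

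*Tie1* was at 8.38 and 8.68 on the SOX7::GFP high arrays and at 6.02 and 6.23 on the SOX7::GFP low arrays, all 4 above the filter value. The log2 difference was 2.40 (standard error 0.18, adjusted p = 0.00589 from limma), or 5.29-fold with a 95% interval from 3.84 to 7.29. Of 31 probe sets kept, 29 lay higher in SOX7::GFP high cells without overlap and 20 were called singly. Among all probe sets kept these shares were 30.3% and 2.25%. But 5 of the 31 passed through the SOX7::GFP high arrays alone and were bound to be higher. With no filter the difference was 2.20 (adjusted p = 0.00460 from limma). Differences within the gene ran from -0.06 to 5.05. The 2 probe sets that overlapped between groups were bright on every array, at 9.20 and 9.25 against 9.33 and 9.24 for one and at 9.92 and 9.85 against 9.89 and 9.72 for the other. Another bright one was at 9.99 and 9.97 against 9.16 and 9.64. These 3 were chosen after their values were seen.

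**Figure D2:**
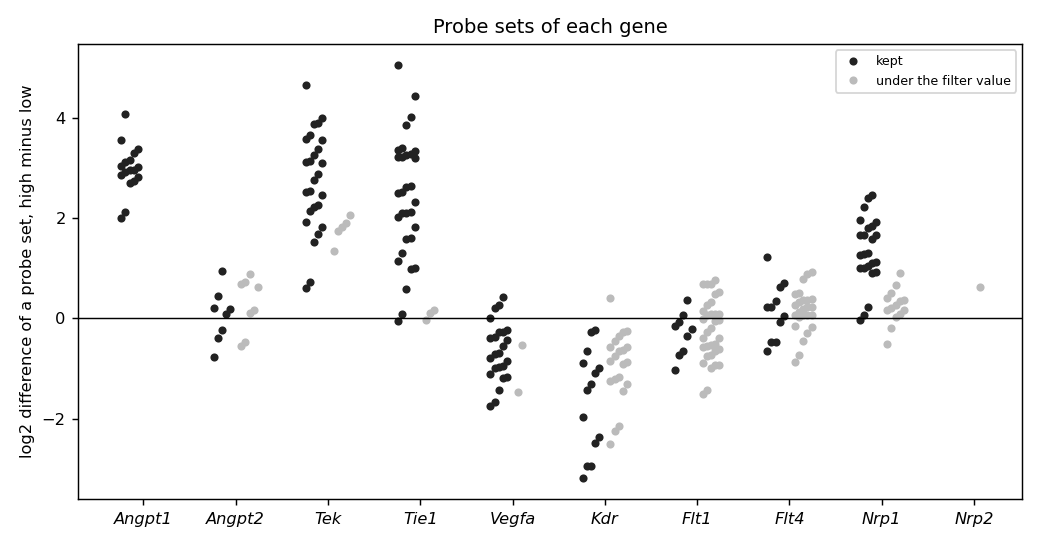
Log2 difference of SOX7::GFP high over low cells (y axis) for every probe set annotated with 1 of the 10 genes, black where kept and grey where under the filter value. All points of Angpt1 and Tek lie above 0, and 34 of 35 points of Kdr lie below it.

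The co-receptor *Nrp1* also rose, by less. It was at 6.87 and 6.81 on the SOX7::GFP high arrays and at 5.80 and 5.18 on the SOX7::GFP low arrays, which were 1.01 apart at their nearest. The log2 difference was 1.35 (standard error 0.24, adjusted p = 0.0384 from limma), or 2.55-fold with a 95% interval from 1.65 to 3.92. This call was the least stable of the 5. With no filter the difference was 0.94 (adjusted p = 0.0730 from limma), and the call was lost without SOX7::GFP high replicate 1 (1.32, adjusted p = 0.170 from limma), SOX7::GFP high replicate 2 (1.38, adjusted p = 0.167) or SOX7::GFP low replicate 2 (1.04, adjusted p = 0.0815). Of 24 probe sets kept, 21 lay higher without overlap, while only 3 were called singly. Among all probe sets kept these shares were 30.3% and 2.25%. Of the 24, 3 passed through the SOX7::GFP high arrays alone and were bound to be higher. The brightest, at 9.74 and 9.88 against 9.72 and 9.46, had a difference of 0.22.

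For *Nrp2* the annotation gives a single probe set with that symbol alone, and it did not pass the filter, at 4.10 and 3.73 against 3.66 and 2.91. A further 28 probe sets carry *Nrp2* together with *Pard3b* and were not used, so no level or test is given for this co-receptor.

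*Vegfa*, the main ligand of the VEGF receptors and a target of hypoxia factors, was at 6.93 and 6.61 on the SOX7::GFP high arrays and at 7.51 and 7.35 on the SOX7::GFP low arrays. The groups did not overlap and were 0.42 apart. Its difference of -0.66 (standard error 0.18, 95% interval from -1.12 to -0.20) was not called (adjusted p = 0.0992 from limma). The adjusted p was 0.0495 over genes with at least 3 probe sets and 0.0446 in a trended robust fit, where the change stayed under 2-fold. Of its 24 probe sets kept, 21 had a negative difference, 18 of them without overlap, and 2 were called lower, against 21.2% without overlap in this direction and 1.77% called lower among all probe sets kept. Differences ran from -1.74 to 0.42 within the gene. The probe set at -1.74, 1 of the 2 called, passed through the SOX7::GFP low arrays alone and was bound to be lower.

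Of the VEGF receptors, *Kdr* was at 4.34 and 4.46 on the SOX7::GFP high arrays and at 5.99 and 6.06 on the SOX7::GFP low arrays. Replicates were close, with SDs of 0.08 and 0.05 (n = 2 arrays each), and the groups were 1.53 apart. The log2 difference was -1.63 (standard error 0.14, adjusted p = 0.00702 from limma). No fold is given, since the SOX7::GFP high level lay under the filter value. The call was lost without SOX7::GFP high replicate 1 (-1.57, adjusted p = 0.0588 from limma) or SOX7::GFP high replicate 2 (-1.68, adjusted p = 0.0511 from limma). *Kdr* was faint throughout: 14 of 35 probe sets passed the filter, 8 of them through the SOX7::GFP low arrays alone and so bound to be lower, and the size of the difference moved with the filter. It was -1.22 over all 35 probe sets and -2.31 over those with a second-highest value of at least 6. The direction was shared by 34 of the 35, and 11 of the 14 kept did not overlap, against 21.2% of all probe sets kept in this direction. Singly, 4 of the 14 kept were called lower, against 1.77% of all probe sets kept. The 8 bound to be lower are all among these 11 and include most of these 4, so the filter fixed part of both counts.

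*Flt1* and *Flt4* were not called. *Flt1* was at 5.68 and 5.44 on the SOX7::GFP high arrays and at 5.79 and 5.95 on the SOX7::GFP low arrays, a difference of -0.31 with a 95% interval from -0.73 to 0.12 (adjusted p = 0.341 from limma). *Flt4* was at 5.90 and 6.02 against 5.88 and 5.73, a difference of 0.16 with an interval from -0.22 to 0.53 (adjusted p = 0.597 from limma). Neither pair of groups overlapped, but the nearest arrays were only 0.10 and 0.02 apart. Both intervals leave out a 2-fold change. Most of their probe sets were dim, with 9 of 43 kept for *Flt1* and 11 of 36 for *Flt4*. None of these 20 was called by limma, with 2 of each gene at an unadjusted p under 0.05. The share of all probe sets at that level was not counted.

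**Figure D3:**
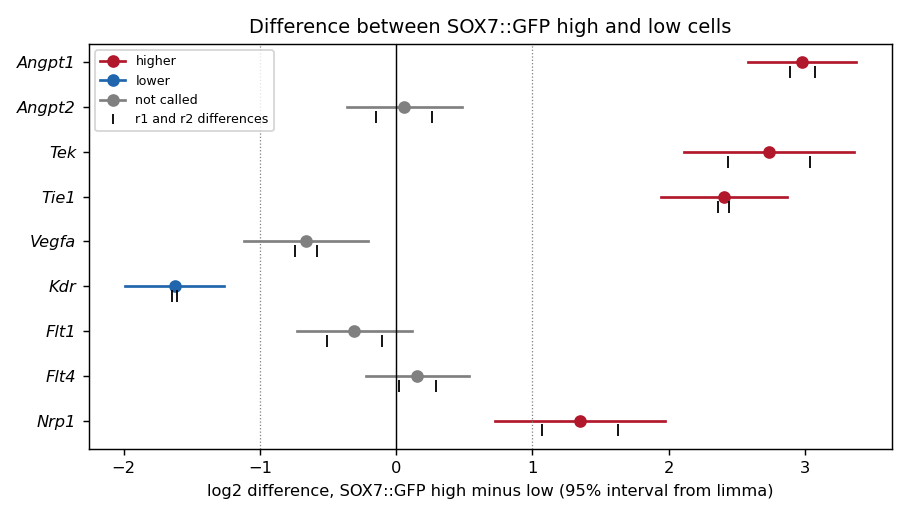
Log2 difference of SOX7::GFP high over low cells (x axis) with its 95% interval from limma, ordered by role from the TIE2 ligands to Nrp1. Small ticks are the differences within r1 and within r2, and dotted lines mark a 2-fold change; Angpt1, Tek, Tie1 and Nrp1 are called higher and Kdr lower.

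Taken within r1 and within r2, the differences had the same sign in 8 of the 9 genes. These are the 8 whose groups did not overlap, which fixes the sign, as it does for 54.4% of all genes tested. The differences were 2.89 and 3.07 for *Angpt1*, 3.03 and 2.43 for *Tek* and 2.36 and 2.44 for *Tie1*. For *Nrp1* they were 1.07 and 1.63 and for *Kdr* -1.65 and -1.61. Among the genes not called they were -0.58 and -0.74 for *Vegfa*, -0.10 and -0.51 for *Flt1* and 0.02 and 0.29 for *Flt4*, and those of *Angpt2* had opposite signs, at 0.26 and -0.15.

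The genes whose values over the 4 arrays lay closest to each called gene, by the Euclidean distance of log2 values centred on the gene's mean, are given as a description over 4 arrays. For *Angpt1* they were *Cysltr2* (distance 0.105), *S100a1* (0.122) and *Tmem86a* (0.157), and for *Tek* *Ikzf2* (0.122), *Ctla2b* (0.232) and *Fyb* (0.259). For *Tie1* they were the integrin gene *Itga2* (0.0454), *Rgs18* (0.0774) and *Mecom* (0.146), a transcription factor gene of stem cells. *Tbxa2r* (0.0553), *Pcmtd1* (0.0897) and *Bcl2l1* (0.0940) lay closest to *Kdr*, and *Pam* (0.0755), *Itm2c* (0.0794) and *Sgf29* (0.0938) to *Nrp1*.

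Around these receptors, 68 of 70 listed genes of the same pathways were tested. Of these, 4 were higher, 11 were lower and 53 were not called, with a median difference of -0.09, against 0.05 over all genes tested. The shares of all genes tested were 3.61% called higher and 3.24% called lower, for this and for each list below. Among 10 other VEGF and angiopoietin ligands, *Pgf*, a ligand of FLT1, was the gene called, at 5.23 and 5.12 in SOX7::GFP high cells and 8.43 and 7.79 in SOX7::GFP low cells. Its difference was -2.94 (adjusted p = 0.00685 from limma), while *Vegfb* (0.32), *Vegfc* (0.45) and *Vegfd* (-0.24) were not called. Of 11 semaphorins and plexins, which signal with neuropilins, the plexin genes *Plxna1* (-2.17, adjusted p = 0.00560) and *Plxna2* (-1.10, adjusted p = 0.0191) fell in limma and the rest were not called.

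Of 30 signal transducers of the Tie and VEGF receptors, 2 were higher and 6 were lower. *Ptprb*, the phosphatase VE-PTP that acts on TIE2, was at 6.11 and 6.17 on the SOX7::GFP high arrays and 4.25 and 4.52 on the SOX7::GFP low arrays (1.76, adjusted p = 0.00788 from limma). *Dok2*, an adaptor that binds TIE2, was at 7.93 and 8.34 against 6.44 and 6.72 (1.55, adjusted p = 0.0193 from limma). The adaptor gene *Gab1* was at 4.27 and 4.81 against 7.97 and 7.86 (-3.38, adjusted p = 0.00513 from limma). *Foxo1*, a transcription factor restrained by AKT, fell by 2.07 and *Ptk2*, the focal adhesion kinase gene, by 1.58 (adjusted p = 0.0124 and 0.0129 from limma). *Ptprj* (-1.16), *Nck1* (-1.13) and *Fyn* (-1.10) made up the 6. The *Ptprb* mean in SOX7::GFP low cells (4.38) lay under the filter value. So did the means of *Gab1* (4.54), *Ptk2* (4.93) and *Plxna2* (4.96) in SOX7::GFP high cells. Any of their probe sets that passed through the other group alone were bound to differ in that direction, and these were not counted. Of 17 hypoxia factors and their targets, listed because *Vegfa* is such a target, the hydroxylase gene *Egln3* (2.12, adjusted p = 0.0118) and *Car9* (1.16, adjusted p = 0.0238) were higher and *P4ha1* (-1.31, adjusted p = 0.0137) and *Bnip3* (-1.26, adjusted p = 0.0117) lower in limma. Without SOX7::GFP high replicate 1 or 2 none of the pathway genes was called higher and 3 were called lower by limma. Without SOX7::GFP low replicate 1 the counts were 3 and 3, and without SOX7::GFP low replicate 2 they were 2 and 4.

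**Figure D4:**
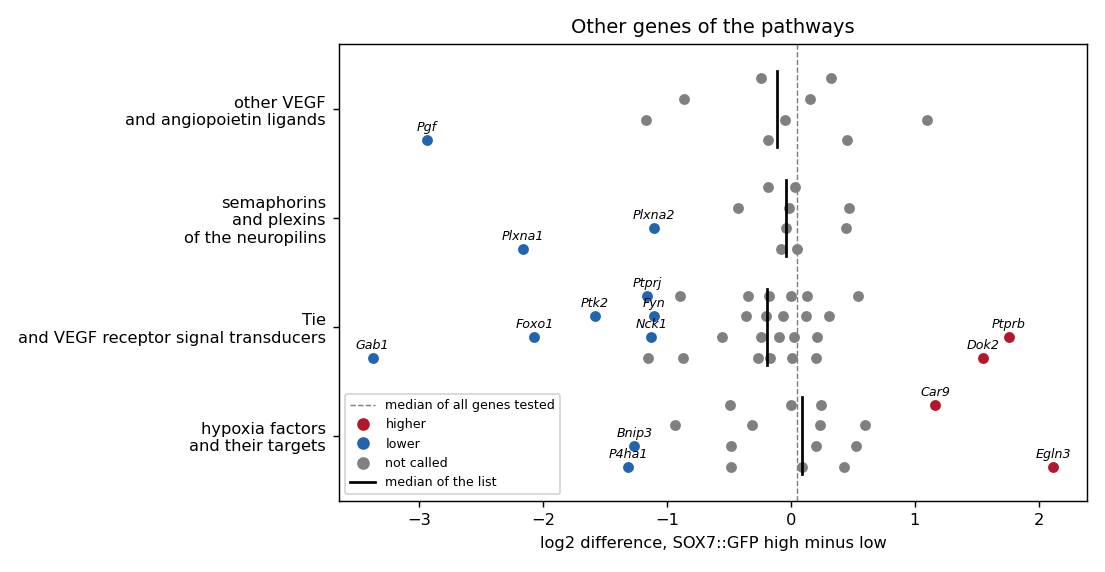
Log2 difference of SOX7::GFP high over low cells (x axis) for each tested gene of the 4 pathway lists, red where called higher, blue where called lower and grey otherwise. Black bars are list medians and the dashed line is the median of all genes tested; vertical spread within a list has no meaning.

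Markers of other cells moved with the same comparison. Their counts stand beside 3.61% of all genes tested called higher and 3.24% called lower. All 11 tested of 12 B-lineage markers were lower in SOX7::GFP high cells, their summed linear intensity running from 738 to 1710 against 19898 to 20955. Of 11 tested megakaryocyte markers 5 were higher, among them *Gp5* (2.62), *Itga2b* (2.40) and *Pf4* (2.35), with sums from 1788 to 2397 against 638 to 751. Of 10 tested stem and progenitor markers 5 were higher, led by *Meis1* (2.72), *Cd34* (2.65) and *Gata2* (2.57), and *Ly6a* was lower (-1.68). Their sums were 3688 to 4316 against 3411 to 3632. Of 8 tested mast cell and basophil markers *Cpa3* (3.20), *Mcpt8* (2.25) and *Fcer1a* (2.24) were higher, with sums from 4249 to 6874 against 1014 to 1323.

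Endothelial markers were split. Of 15 tested, *Cdh5* (2.78), *Esam* (2.72), *Pecam1* (1.41) and *Ecscr* (1.21) were higher, *Erg* was lower (-1.98) and 10 were not called. Their sums were 3240 to 3442 against 2376 to 3073, and *Cldn5* did not pass the filter. The study picked *Gata2* and *Flt3* of the stem and progenitor markers from these arrays. None of 13 tested stroma markers was called by limma, 1 passed at an unadjusted p under 0.05 (*Pdgfrb*, 0.87), and the sums ran from 1661 to 2732 against 1222 to 2149 and overlapped between groups. Of 9 monocyte and macrophage markers *Ly6c2* was lower (-1.16), the sums being 4100 to 5212 against 3528 to 3846. These sums were mostly *Lyz2*, not called, at 12.06 and 11.81 against 11.37 and 11.39. The median difference of the 9 was -0.45. Of 8 plasmacytoid dendritic cell markers *Spib* was lower (-3.57), with sums of 5847 to 7025 against 7198 to 7656. The part of these cell types in the differences of *Angpt1*, *Tek*, *Tie1*, *Nrp1* and *Kdr* was not tested.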

How the data were processed

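The authors hybridized labelled RNA of the 4 samples to Affymetrix mouse exon 1.0 ST arrays and deposited log2 values of 1236087 probe sets after background adjustment and normalization by robust multi-array averaging (RMA, its version not given in the sources used here). The deposited table is unfiltered, and the detection scores of the study's methods were not used here. The array annotation gives 1 symbol for 321091 probe sets and several for 7796, and 907200 are unnamed here. Of 22378 names, 18054 are current in the GRCm38.p6 gene table and 4259 were updated as a synonym of 1 gene.

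Probe sets kept at 5.04 or more on 2 arrays were averaged per gene (median 7), and 18762 genes were fitted with limma 3.58.1 in R 4.3.3, empirical Bayes, two-sided, on all 4 arrays. The test was checked on simulated data. An array gives no count, and the number of arrays limits the precision. Differences are log2, SOX7::GFP high minus SOX7::GFP low. Summed marker intensities add the linear gene values, so that the brightest markers weigh most.

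The genes of interest, the pathway and marker lists and the rules were chosen with earlier results of these data known. Named were all 10 genes, up to 3 called genes per list and direction (all where 5 or fewer were counted) and the 3 genes nearest each called gene, some others after their values were seen. Alternatives were other filters, medians, a minimum of 3 probe sets, quantile normalization, centring on reference genes and a trended robust fit. Others were the t-test of the study's general methods, a replicate block, no fold minimum, a test per probe set and each array left out. A comparison of protein sequences was planned and not made here.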

Additional observations from a re-analysis of the deposited data

How the results depend on the processing

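The calls of *Angpt1*, *Tek*, *Tie1*, *Kdr* and *Nrp1* held in gene-level limma fits under every filter, summary and scaling run with all 4 arrays, except that *Nrp1* missed without a filter. Over 144 values of the 9 genes under alternatives, 127 kept direction and side of the threshold, 13 no longer passed and 4 changed sign. *Vegfa* stayed under 2-fold throughout, with adjusted p from 0.0446 to 0.327 in limma. These 4 were of *Angpt2*, at -0.021 after quantile normalization, -0.074 when centred on 9 reference genes and, with 1 array left out, in a range from -0.058 to 0.18. Centring moved the median of all genes from 0.05 to -0.09, and 1 reference gene, *Gusb*, was itself called higher (1.16).

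With 1 array left out, 2 to 4 of the genes were called higher and 0 to 1 lower, 0 to 3 pathway genes higher and 3 to 4 lower, and 145 to 406 of all genes higher and 166 to 313 lower, against 678 and 608 with all arrays. These fits have fewer arrays. The methods' t-test with Benjamini-Hochberg adjustment called 0 genes in each direction, so 0 of the genes described and 0 pathway genes. At an unadjusted p under 0.05 with the fold minimum, an alternative chosen after seeing the data, it called 628 higher and 565 lower, among them 4 and 1 of the genes described. With limma per probe set, *Kdr* (4 of 14) and *Nrp1* (3 of 24) did not have most of their probe sets called, which left 0 genes lower and 3 higher by that count.

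Nothing in the labels says that a replicate number marks a pair, and the deviations of same-numbered arrays correlated across genes at 0.10. With the replicate number as a block limma called 704 genes higher and 642 lower, with 4 and 1 of the genes described and 4 and 11 pathway genes, and no call of these genes changed. Signal over background limits *Tek* in SOX7::GFP low cells and *Kdr* in SOX7::GFP high cells, where means lay under the filter value. Among the listed genes it likewise limits, with others, *Ptprb* and *Esam* in SOX7::GFP low cells. In SOX7::GFP high cells it limits *Gab1*, *Ptk2*, *Plxna2* and *Spib*.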
